A study of Mus musculus with 6 samples.

Results

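Apoptosis in lymphocytes can be started at the cell surface by Fas or inside the cell through mitochondria, and 8 genes that carry these routes were followed in B cells lacking the RNA-binding protein hnRNPL. They are *Fas*, *Fasl*, *Fadd* and *Casp8* of the death receptor route, *Apaf1* and *Casp9* of the apoptosome, *Pidd1* of the PIDDosome and *Perp*, a membrane protein gene induced by p53. They were chosen by name, with earlier results of these data known, and make up 8 of the 55421 genes in the table. In the death receptor route, Fas ligand on one cell clusters Fas on another, the adaptor FADD binds the receptor tail, and the initiator protease caspase-8 is activated on it. In the mitochondrial route, cytochrome c released into the cytosol makes APAF1 assemble into the apoptosome, a wheel-shaped complex that activates caspase-9. Activated B cells are known to need Fas for the removal of autoreactive clones, and *Fas*, *Apaf1*, *Perp* and *Pidd1* are known transcriptional targets of p53.

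Splenic B cells were cultured for 24 h with IL-4 at 5 ng/ml and LPS at 5 μg/ml, and polyadenylated RNA was sequenced from 3 WT and 3 hnRNPL-deficient mice, 1 library per mouse. The WT mice carried *CD21-cre* and the *Rosa* mT/mG reporter, in which Cre switches a cell from tdTomato to GFP. The hnRNPL-deficient mice carried the same alleles together with homozygous floxed *Hnrnpl* (hnRNPL F/F). GFP+ cells were sorted in both groups, so both had Cre activity, and no Cre-negative cells were compared. The CD21 promoter is known to be active mainly from the mature B cell stage on, so the model concerns loss late in B cell development. Both sexes were used in the study, on the C57BL/6J background, and the age and sex of the single mice are not given in the labels.

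The libraries held 40395186 to 75180749 reads on genes, and hnRNPL-deficient library 3 was the shallowest. *Hnrnpl* was at 24174 to 25580 normalized counts in WT and at 1297 to 2178 in hnRNPL-deficient libraries, so every library matched its label. Normalized counts are reads per gene divided by the size factor of the library. The 6 B cell markers summed to between 274249 and 350783 normalized counts in WT and between 266462 and 312659 in hnRNPL-deficient libraries, and 0 of the 6 were called by limma, edgeR or DESeq2 (3 had an unadjusted limma p under 0.05). Over all 17640 tested genes, 4830 had an unadjusted limma p this low. The 7 T cell markers summed to 49.9 to 55.1 against 37.9 to 43.9, with *Cd8b1* lower, while *Trac*, the only other one tested, was at 13.9 to 18.2 against 21.6 to 32.9 (limma adjusted p = 0.256). The 5 NK cell markers summed to 26.8 to 39.5 against 46.4 to 73.0, with *Prf1* higher and *Ncr1* at 0 throughout. The 6 myeloid markers summed to 260.0 to 331.1 against 1239 to 1382, nearly all of it *Adgre1* (235.6 to 315.1 against 1217 to 1369), while *S100a8* and *S100a9* were at 0 in every library and *Lyz2* at 0 in 5 of 6. The 4 erythroid markers summed to 5.19 to 18.6 against 16.2 to 27.3, and the 4 plasma cell markers to 1640 to 1838 against 1389 to 1908, with *Jchain* lower by limma and DESeq2 but not by edgeR. With single libraries left out, the limma adjusted p reached 0.135 for *Cd8b1*, 0.246 for *Prf1* and 0.15 for *Jchain*. *Adgre1* was called higher (log2 fold change 2.24, limma adjusted p = 1.39e-04), and its limma adjusted p in those fits was 0.00136 at most. The part of these differences in the results below was not tested. In bulk RNA, fewer cells of a type and less RNA per cell cannot be told apart.

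*Fas* and *Apaf1* were the members that rose in hnRNPL-deficient B cells, *Fas* 2.02-fold and *Apaf1* 1.57-fold. *Casp8*, *Casp9* and *Pidd1* were expressed and did not pass the test, and *Fasl* and *Perp* were near the limit of detection. *Fadd* passed the limma adjusted p only narrowly (0.0992) and did not reach the fold limit. A gene was called at a limma adjusted p under 0.1 (Benjamini-Hochberg over 17640 genes whose mean was 10 normalized counts or more) together with a change of at least 1.5-fold. By this rule 2 of the 6 members tested were higher and 0 were lower, while over all tested genes 7.28% were higher and 4.08% were lower. The count lower was also 0 at an unadjusted limma p under 0.05 and by edgeR and DESeq2 on the reads of 5 libraries. At that unadjusted p, 4830 of the 17640 tested genes passed in either direction. The median log2 fold change was 0.30 over the 6 members and -0.03 over all tested genes. In 3 of the 6 members (*Fas*, *Fadd* and *Apaf1*) every hnRNPL-deficient value lay above every WT value, as in 17.7% of all tested genes. In 0 of the 6 did every value lie below, as in 16.3% of all tested genes, and groups without overlap in either direction made up 34.0%.

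**Figure D1:**
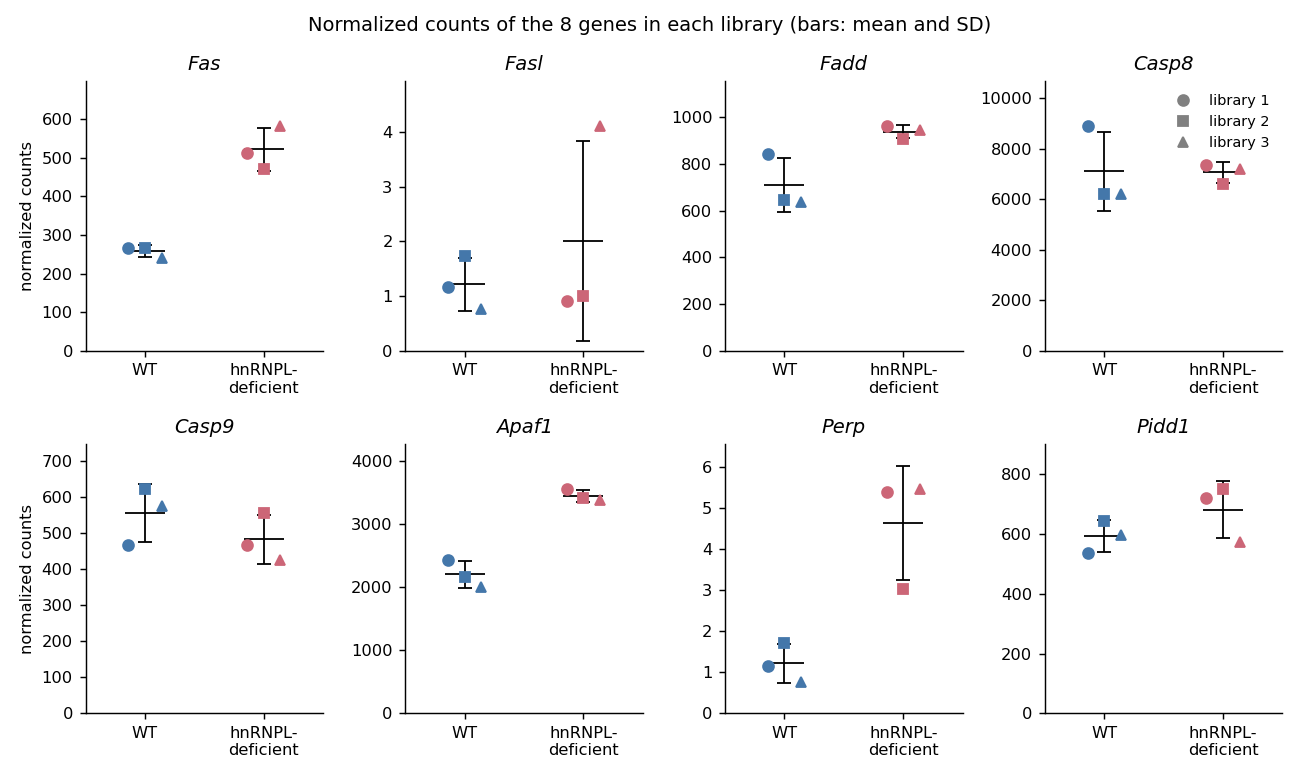
Normalized counts (vertical axes, starting at 0, a scale of its own for each gene) of the 8 members in each library of the WT and hnRNPL-deficient groups. Points are single mice, and bars are mean ± SD (n = 3). The marker shape gives the library number, and the labels state no link between equal numbers across groups. The groups are apart for *Fas*, *Apaf1* and *Fadd*, and for *Perp* at only a few reads, and WT library 1 of *Casp8* stands at 8893, above the other libraries.

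The sequences upstream of *Fas* and *Apaf1* are shown because these are the members that rose. They are the stretches before both the RefSeq and the GENCODE start of each gene, 5′ to 3′ on the strand of the gene, from RefSeq promoter windows on GRCm38.p6. Capitals mark the GC box GGGCGG, the motif bound by Sp1-type factors, and in *Fas* also the E-box CACGTG, each searched on both strands.
Fas: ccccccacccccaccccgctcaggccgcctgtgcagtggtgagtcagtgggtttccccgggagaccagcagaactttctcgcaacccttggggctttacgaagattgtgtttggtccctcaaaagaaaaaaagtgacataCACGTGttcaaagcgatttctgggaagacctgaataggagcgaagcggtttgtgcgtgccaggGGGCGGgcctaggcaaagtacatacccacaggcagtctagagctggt
Apaf1: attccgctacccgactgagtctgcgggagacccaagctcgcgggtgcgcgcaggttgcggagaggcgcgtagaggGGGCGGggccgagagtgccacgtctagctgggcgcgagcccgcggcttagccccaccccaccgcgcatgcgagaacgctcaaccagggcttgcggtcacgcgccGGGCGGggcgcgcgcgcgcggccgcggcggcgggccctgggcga
The *Fas* stretch lies at chr19:34290409-34290658 on the plus strand, and the *Apaf1* stretch at chr10:91082771-91082993 on the minus strand. RefSeq windows from 250 bases before to 50 after the start were found for 7 of the 8 members. A GC box was present in 6 of these 7 windows and in 35.7% of 32851 windows over all genes. The E-box was present in 1 of the 7 (*Fas*) and in 7.15% of all windows, and the E2F site (TTTCCCGC or TTTGGCGC) in 1 of the 7 (*Fadd*) and in 1.56%. The p53 decamer, a 10-base consensus unit of a p53 response element, had a match in 1 of the 7 (*Fasl*) and in 8.36% of all windows. The *Casp8* window (chr1:58802252-58802551) lay inside the GENCODE gene, downstream of its start at chr1:58795374, so the sequence before that start was not searched. With a GC content of 42.0%, this window held none of the 4 motifs, and the *Apaf1* window had a GC content of 74.7%. A match, or its absence, describes the letters in these windows only and says nothing of binding by a factor.

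Among the death receptor genes, the ligand gene *Fasl* (chr1:161780689-161788495, minus strand, in GRCm38, as are all gene positions here) was barely detected. The WT libraries held 1, 2 and 1 reads, and the hnRNPL-deficient libraries 1, 1 and 3 reads. The groups overlapped, and at this depth no difference was detectable: the ratio of reads scaled by library was 1.47 with a 95% exact interval of 0.316 to 7.41, which covers counting error only. *Fasl* is known mainly from activated T cells and NK cells, whose markers were low here.

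*Fas* (chr19:34290666-34327772, plus strand), the receptor gene, was at 266.9, 267.2 and 240.1 normalized counts in the WT libraries. It was at 511.2, 471.5 and 582.5 in the hnRNPL-deficient libraries. The lowest hnRNPL-deficient library was far above the highest WT library, and the spread within each group was small beside the distance between them. Group means were 258 ± 15.5 (WT) and 522 ± 56.3 (hnRNPL-deficient; SD, n = 3 mice), which gave a log2 fold change of 1.01 (standard error, SE, 0.152, 95% interval 0.66 to 1.36, limma adjusted p = 0.00529). Fits lacking a single library gave log2 fold changes of 0.93 to 1.08, with limma adjusted p between 0.0125 and 0.0346. Of all tested genes, 5.53% had a larger log2 fold change than *Fas*. A small RNA gene, *Gm27818*, lies within *Fas* on the same strand.

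*Fadd* (chr7:144577318-144582463, minus strand), which encodes the adaptor that joins Fas to caspase-8, was at 841.4, 646.7 and 638.6 normalized counts in WT. The hnRNPL-deficient libraries had 961.9, 905.7 and 945.7. The groups did not overlap, and WT library 1 was the closest to the hnRNPL-deficient values. The means were 709 ± 115 and 938 ± 29.0 (SD, n = 3), a ratio of 1.32. The adjusted p of 0.0992 from limma was just under 0.1, but the change was under 1.5-fold, so *Fadd* was not called, and 18.0% of all tested genes had such an adjusted p at any fold. Its log2 fold change was 0.41 (SE 0.142, 95% interval 0.09 to 0.74), and with 1 library left out the limma adjusted p ranged from 0.0358 (without WT library 1) to 0.280 (without WT library 3). The antisense gene *Faddos* overlaps *Fadd* on the other strand, and counting was strand-specific.

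*Casp8* (chr1:58795374-58847503, plus strand), the initiator caspase of the death receptor route, was at 8893, 6186 and 6200 normalized counts in WT. The hnRNPL-deficient libraries had 7365, 6594 and 7210, all of them inside the WT range. WT library 1 stood above every other library. The means were 7093 ± 1559 and 7056 ± 408 (SD, n = 3), a log2 fold change of 0.01 (SE 0.148, 95% interval -0.33 to 0.35, limma adjusted p = 0.966). The sign of this small difference depended on single libraries, with values from -0.075 to 0.19 when each was left out. The same-strand gene model *Gm37760*, whose coding status is not settled, overlaps *Casp8*, and reads shared by the pair are uncertain.

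*Apaf1* (chr10:90989311-91082770, minus strand), the scaffold gene of the apoptosome, was at 2434, 2171 and 2012 normalized counts in WT. It was at 3565, 3419 and 3385 in hnRNPL-deficient libraries. The hnRNPL-deficient libraries were close together and well above all WT libraries. The means were 2206 ± 213 and 3456 ± 95.3 (SD, n = 3), a log2 fold change of 0.65 (SE 0.104, 95% interval 0.41 to 0.89, limma adjusted p = 0.00685). Leaving out each library gave log2 fold changes of 0.59 to 0.72 and limma adjusted p between 0.00707 and 0.0391. Although its adjusted p was close to that of *Fas*, its change was smaller, under 2-fold, and 11% of all tested genes had a larger one.

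*Casp9* (chr4:141793612-141815976, plus strand), the initiator caspase that APAF1 recruits, was at 466.5, 624.3 and 576.6 normalized counts in WT. The hnRNPL-deficient libraries had 468.8, 556.3 and 424.9. The groups overlapped, with the low WT library 1 among the hnRNPL-deficient values. The means were 556 ± 80.9 and 483 ± 66.9 (SD, n = 3), a log2 fold change of -0.20 (SE 0.169, 95% interval -0.58 to 0.18, limma adjusted p = 0.482). *Cela2a* and *Ctrc*, genes of pancreatic proteases, overlap it on the other strand.

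*Pidd1* (chr7:141438113-141444025, minus strand) encodes the scaffold of the PIDDosome, the complex that activates caspase-2. It was at 538.5, 645.0 and 595.7 normalized counts in WT and at 722.1, 752.2 and 572.9 in hnRNPL-deficient libraries. Libraries 1 and 2 of the hnRNPL-deficient group were above all WT libraries, and library 3, the shallowest, was below 2 of them. The log2 fold change was 0.20 (SE 0.152, 95% interval -0.15 to 0.54, limma adjusted p = 0.444).

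*Perp* (chr10:18845020-18857073, plus strand), known as a p53-induced desmosomal and death-associated membrane protein gene, had 1, 2 and 1 reads in WT and 6, 3 and 4 reads after hnRNPL loss. Every hnRNPL-deficient library had more reads than every WT library, but the totals were only 4 and 13 reads. The ratio of reads scaled by library was 3.82, with a 95% exact interval of 1.18 to 16.1 for counting error only. *Perp* was under the filter on low values. With the filter lowered to a mean of 1 normalized count, its adjusted p from limma was 0.17, on a log2(value + 1) scale that understates changes of genes this low.

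**Figure D2:**
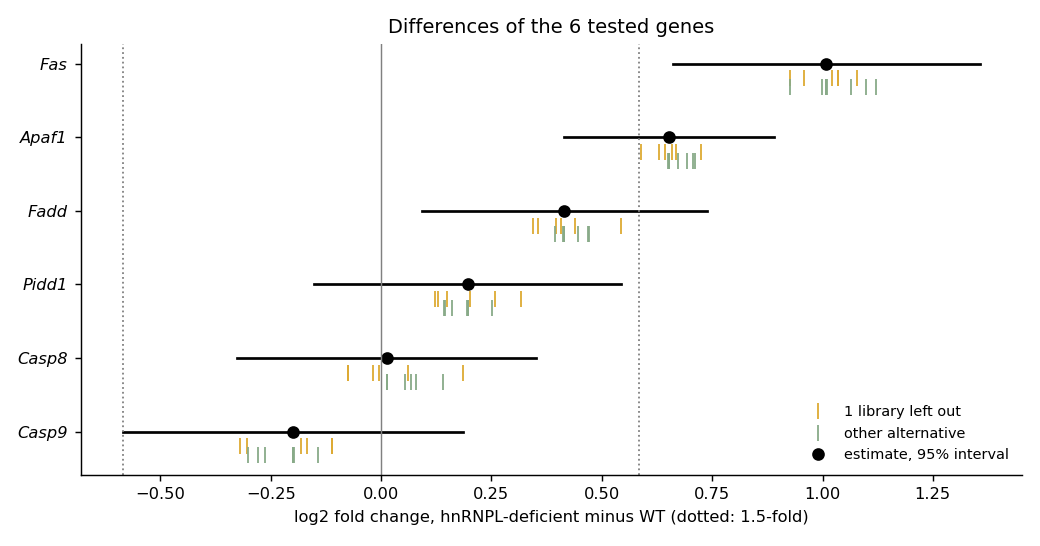
Log2 fold change of hnRNPL-deficient against WT (horizontal axis) for the 6 members tested by limma, with black points for the estimate, bars for its 95% interval, yellow ticks for the fits with 1 library left out and green ticks for the other alternatives. *Fas* (1.01) and *Apaf1* (0.65) lie to the right of the 1.5-fold line, *Fadd* (0.41) lies short of it, and the intervals of *Casp8*, *Casp9* and *Pidd1* cover 0.

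Levels of different genes were compared per kb of exon, over all annotated exons of a gene. The order of genes therefore also depends on that length, which can exceed that of the transcripts expressed. In WT cells *Casp8* was by far the most abundant member, at 2452 ± 539 normalized counts per kb (SD, n = 3). *Apaf1* followed at 244 ± 23.6 and *Fadd* at 182 ± 29.4 normalized counts per kb, and the library ranges of these 3 genes did not overlap one another. *Pidd1* (131 ± 11.8), *Fas* (125 ± 7.54) and *Casp9* (107 ± 15.6) came next. Among these, the ranges of *Pidd1* and *Fas* overlapped, as did those of *Fas* and *Casp9*, so their order is not set beyond the spread between mice. *Fasl* and *Perp* were under 1 normalized count per kb in every WT library. In hnRNPL-deficient cells *Fas* stood at 253 ± 27.3 normalized counts per kb, in the range of *Fadd* (240.3 ± 7.43) and above *Pidd1* (151 ± 21.2) in every library. *Apaf1* was at 383 ± 10.6, *Casp9* at 93.0 ± 12.9 and *Casp8* at 2439 ± 141 normalized counts per kb.

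**Figure D3:**
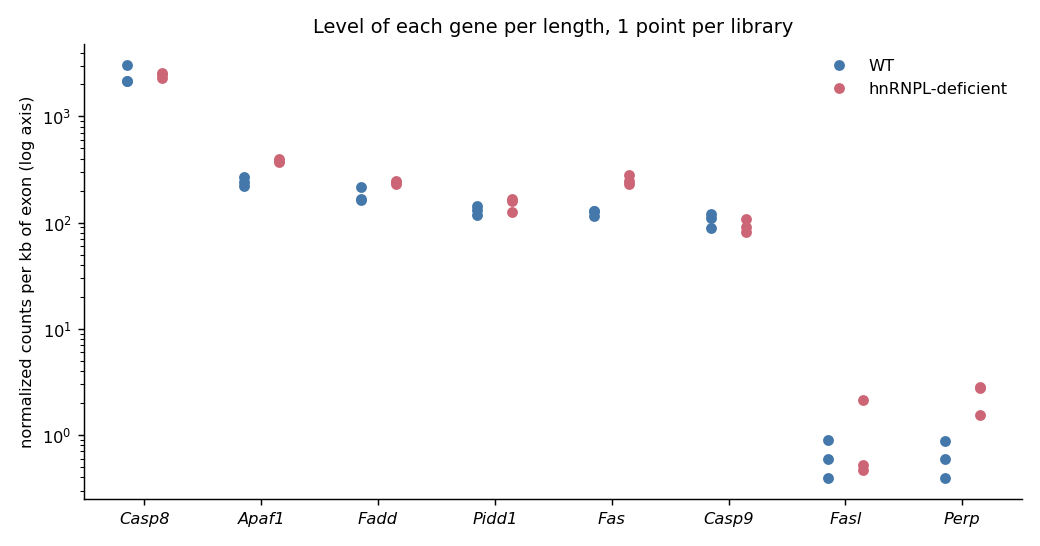
Normalized counts per kb of exon (log axis) for the 8 members, with 1 point per library, WT in blue and hnRNPL-deficient in red. *Casp8* lies between 2138 and 3074 over all libraries, *Fas* moves from the level of *Casp9* and *Pidd1* to that of *Fadd*, and *Fasl* and *Perp* lie near the detection limit.

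Ratios between partners within a library do not depend on size factors, and 3 were compared by a two-sided exact permutation test, which cannot go below p = 0.1 with 3 against 3 mice. They are ratios of normalized counts and are not corrected for length. The ratio of *Apaf1* to *Casp9*, the components of the apoptosome, was 5.22, 3.48 and 3.49 in WT and 7.60, 6.15 and 7.97 in hnRNPL-deficient libraries. All hnRNPL-deficient libraries were above all WT libraries. The log2 ratio differed by 0.85 (exact permutation p = 0.1, 0.15 after Benjamini-Hochberg over the 3 ratios). The ratio of *Fas* to *Fadd*, the receptor and its adaptor, was 0.317, 0.413 and 0.376 in WT and 0.531, 0.521 and 0.616 in hnRNPL-deficient libraries. These groups did not overlap either, and the log2 ratio differed by 0.59 (exact permutation p = 0.1, adjusted 0.15). *Casp8* was also set against *Cflar*, which encodes cFLIP, its catalytically inactive relative that blocks activation at the receptor. That ratio was 0.557, 0.376 and 0.428 in WT and 0.534, 0.511 and 0.474 in hnRNPL-deficient libraries. These groups overlapped, with WT library 1 the highest of all, and the log2 ratio differed by 0.18 (exact permutation p = 0.4, adjusted 0.4).

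**Figure D4:**
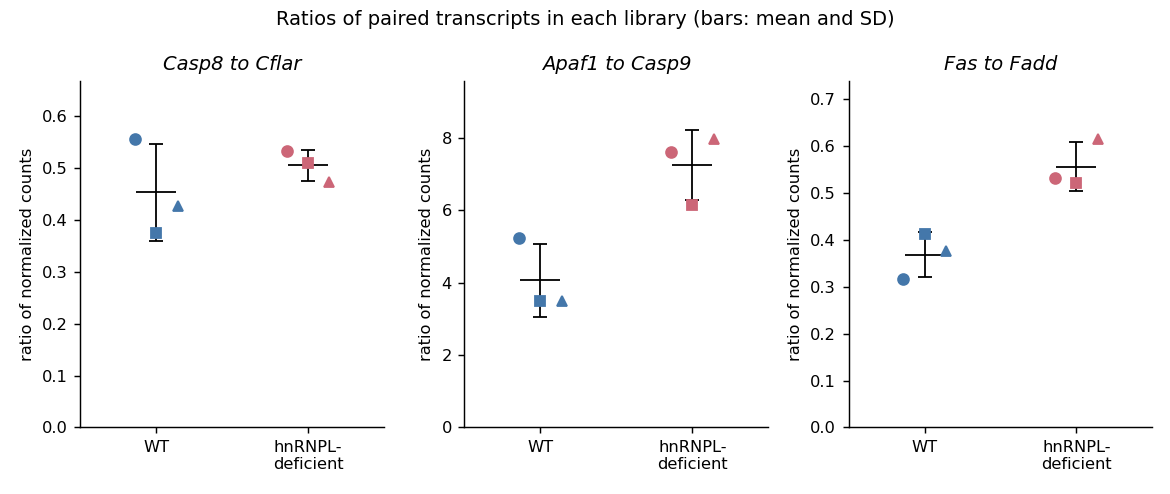
Ratios of normalized counts within each library (linear axes starting at 0) for *Casp8* to *Cflar*, *Apaf1* to *Casp9* and *Fas* to *Fadd*, with points for single mice and bars for mean ± SD (n = 3). The groups are apart for *Apaf1* to *Casp9* (means 4.06 and 7.24) and *Fas* to *Fadd* (0.369 and 0.556) and overlap for *Casp8* to *Cflar* (0.454 and 0.506).

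The genes whose pattern over the 6 libraries was most like that of *Fas*, by the root mean square difference of centred log2 values among genes averaging 50 normalized counts or more, were *Zfp846* (0.0596), *Gm14399* (0.0628) and *Zfp53* (0.0641). Those most like *Apaf1* were *Mdm2* (0.0295), *Gm45769* (0.0356) and *Pqlc3* (0.0390). The choice by likeness fixes that these genes have log2 fold changes close to that of *Fas* or *Apaf1*.

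Around the members, 49 further genes of the death pathways were listed in 6 groups, also with earlier results known, and 45 of them were tested. Of these, 5 were higher and 2 were lower, with a median log2 fold change of -0.01, where 11.4% of all tested genes were called in either direction. The 4 below the filter were *Tnfrsf1a*, *Tnfrsf25*, *Casp12* and *Casp14*, the last of which had 0 reads in every library.

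Of the 6 other death receptors and ligands, 4 were tested and 1 rose. *Tnfrsf10b*, the mouse TRAIL receptor gene and a p53 target, was at 604.6, 631.2 and 598.0 normalized counts in WT and at 1827, 1851 and 1826 in hnRNPL-deficient libraries. Both groups were tight and far apart. The log2 fold change was 1.58 (SE 0.104, limma adjusted p = 1.31e-04), a larger difference than that of *Fas*, and it was 1.57 to 1.61 in the fits lacking a single library.

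Of the 13 adaptors and regulators of death receptor signaling, 1 was higher and 1 was lower. *Cradd*, which links PIDD1 to caspase-2, rose from 299.4, 273.2 and 275.3 to 423.7, 517.9 and 474.2 normalized counts, with no overlap (log2 fold change 0.73, SE 0.150, limma adjusted p = 0.0181). *Mlkl*, the pore-forming effector of necroptosis, fell from 1012, 697.7 and 702.8 to 519.3, 511.9 and 416.7 normalized counts, with WT library 1 again the highest. Its log2 fold change was -0.72 (SE 0.182, limma adjusted p = 0.0389), and without WT library 1 it was -0.54 and no longer called (limma adjusted p = 0.0765). *Cflar* was at 14483 to 16476 normalized counts in WT and 12914 to 15220 in hnRNPL-deficient libraries, which overlapped (log2 fold change -0.16, limma adjusted p = 0.343).

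Of the 8 other caspases, 6 were tested and 1 rose. *Casp4*, the inflammatory caspase that senses cytosolic LPS, was at 1252, 1162 and 1074 normalized counts in WT and at 1766, 1782 and 2019 in hnRNPL-deficient libraries (log2 fold change 0.67, SE 0.114, limma adjusted p = 0.00846). All hnRNPL-deficient values were above the WT values.

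Of the 10 apoptosome partners and inhibitors of apoptosis, 0 were higher and 1 was lower by limma, edgeR and DESeq2 alike (1 was higher and 3 were lower at an unadjusted limma p under 0.05). Such an unadjusted p was found in 4830 of all 17640 tested genes. *Htra2*, a mitochondrial protease that is released and binds inhibitors of apoptosis, fell from 1075, 1038 and 981.9 to 696.9, 738.1 and 608.6 normalized counts. The groups were apart, and the log2 fold change was -0.60 (SE 0.125, limma adjusted p = 0.0192), close to the 1.5-fold limit. It came to -0.57 without WT library 1, and leaving out hnRNPL-deficient library 3 gave -0.52, both short of the limit. *Cycs*, which encodes the cytochrome c that triggers APAF1, was at 27279, 16858 and 16700 normalized counts in WT and 19976, 14243 and 16293 in hnRNPL-deficient libraries (log2 fold change -0.24, limma adjusted p = 0.482). WT library 1 was far above the rest. *Xiap*, an inhibitor of caspase-9, was at 8595 to 11030 normalized counts in WT and 8954 to 11142 in hnRNPL-deficient libraries, with full overlap (limma adjusted p = 0.668). *Birc5*, or survivin, named after its values were seen, had a log2 fold change of -0.62, beyond that of *Htra2*, but its groups overlapped and it was not called (SE 0.266, limma adjusted p = 0.172). Leaving out hnRNPL-deficient library 1 gave -0.86, which was called (limma adjusted p = 0.0832), and no other fit lacking a library called it. The log2 fold change shrank to -0.34 without hnRNPL-deficient library 3 (limma adjusted p = 0.359) and to -0.45 without WT library 1 (limma adjusted p = 0.374).

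None of the 9 execution phase genes, which act in DNA fragmentation and membrane exposure, was called by limma, edgeR or DESeq2, and 0 had an unadjusted limma p under 0.05. Among all 17640 tested genes, 4830 had one. Of the 3 p53-linked death genes 2 rose. *Trp53inp1*, whose product promotes p53-dependent death, rose from 1431, 1159 and 1316 to 10046, 6799 and 9563 normalized counts, far above WT in every library (log2 fold change 2.74, SE 0.160, limma adjusted p = 6.9e-05). *Ei24* rose from 4650, 3957 and 3842 to 6535, 5874 and 6239 normalized counts, with no overlap (log2 fold change 0.59, limma adjusted p = 0.0111), only just past the 1.5-fold limit. Its log2 fold change fell short of that limit without WT library 2 (0.56), without WT library 3 (0.53), without hnRNPL-deficient library 1 (0.55) or without hnRNPL-deficient library 3 (0.58). A further 4 of the 45 genes passed the adjusted p but not the fold, named here after their values were seen. They were *Tnf* (log2 fold change -0.55), *Fcmr* (0.51), *Pea15a* (0.43) and *Aen* (0.41).

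**Figure D5:**
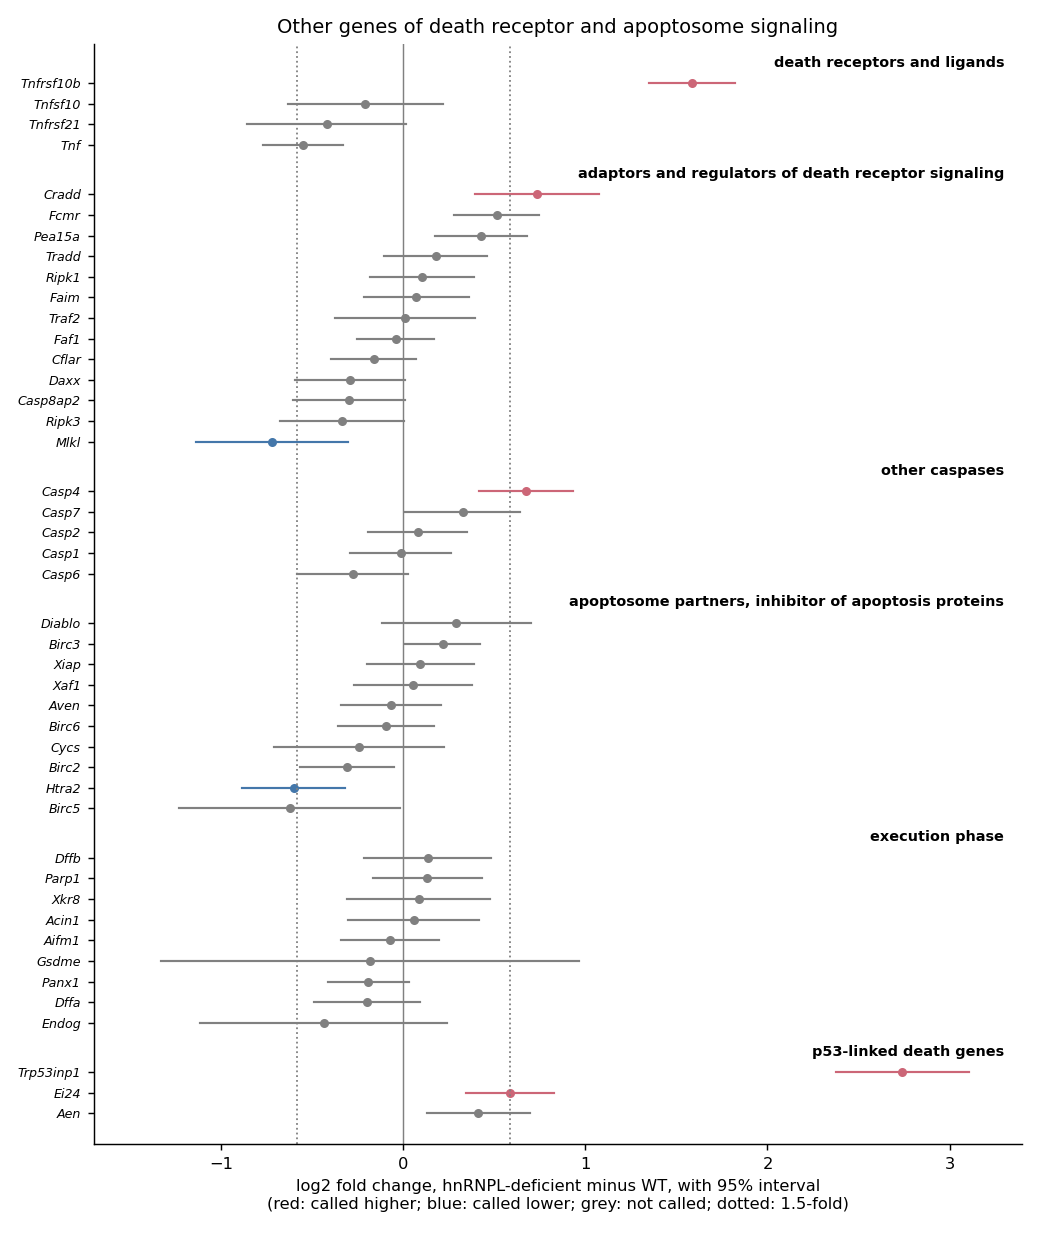
Log2 fold change of hnRNPL-deficient against WT (horizontal axis) for the tested death pathway genes beside the members, apart from 1 gene not shown, by group, with 1 point per gene and bars for the 95% interval. Red points are genes called higher, blue points genes called lower and grey points genes not called, and dotted lines mark 1.5-fold. *Trp53inp1* (2.74) and *Tnfrsf10b* (1.58) stand far to the right, *Mlkl* (-0.72) and *Htra2* (-0.60) are the called genes on the left, and the execution phase genes have no called gene.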

How the data were processed

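RNA-seq of GFP+ splenic B cells from 3 WT and 3 hnRNPL-deficient mice was used, grouped by the labels. The authors trimmed reads with fastp 0.23.1, aligned them to mm10 with STAR 2.7.9a, counted them per gene and strand with featureCounts, and divided the counts by DESeq2 1.38.2 size factors. The deposited signal is these normalized counts, with a column for each mouse. Other deposited columns hold the authors' mean, log2 fold change with its error, test score and p-values, none of which was used. Sample columns without a label numbered 0.

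The main test was limma 3.58.1 (R 4.3.3) with a mean-variance trend on log2(normalized count + 1), for genes averaging 10 or more. The code was tried on simulated counts with equal depth and the same dispersion for every gene. These data are less even, so that trial says nothing of single calls here. With 1 library per mouse, p-values measure the spread between mice, with any difference between experiments included. A figure legend of the paper that covers RNA-seq counts says its results came from more than 1 experiment. The labels do not assign mice to experiments. Values were whole multiples of 1 read within 0.02 in 100% of cases. The smallest value of hnRNPL-deficient library 2 is near 1, which the automatic test for whole reads could not read, so the count tests, chosen after seeing the data, used the other 5 libraries. They called 1144 higher and 578 lower genes (edgeR 4.0.16, quasi-likelihood) and 1180 and 721 (DESeq2 1.42.0). Alternatives were pseudocounts of 0.5 and 5, other filters, scaling to equal totals, quantile normalization, no variance trend, robust variances, stricter thresholds, a replicate block and each library left out. Gene positions and exon lengths come from GENCODE M21 on GRCm38, an earlier release than the authors used. All 8 members, *Cflar*, *Cycs*, *Xiap* and the called pathway genes are named, with the 3 genes most like each called member. A pathway gene of that rule is counted but not reported here. The members and lists were chosen with earlier results of these data known. Intervals of reads cover counting error only.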

Additional observations from a re-analysis of the deposited data

How the results depend on the processing

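*Fas* kept its call in all 19 alternatives, with limma adjusted p or that of the count tests between 8.49e-07 and 0.0346. The smallest, from DESeq2, rests on 5 libraries without hnRNPL-deficient library 2, the lowest of its group for *Fas*. *Apaf1* kept an adjusted p between 1.6e-04, from DESeq2 on the same 5 libraries, and 0.0391. Under stricter limits (2-fold, adjusted p under 0.05), however, the *Apaf1* log2 fold change of 0.65 was no longer called. At those limits 1 member was higher, and the pathway genes had 2 higher and 0 lower. Over all genes they left 610 higher and 216 lower, against 1284 and 719 as reported. With equal totals 1 pathway gene was lower (*Htra2* at -0.55 was lost), and with each library left out 1 to 3 were (1 without hnRNPL-deficient library 3). Without WT library 1 the count stayed at 2 but the genes changed. There *Mlkl* (-0.54) and *Htra2* (-0.57) were not called, while *Tnf* (-0.60) was called lower. The *Casp8* difference turned negative without either of WT libraries 2 and 3 or of hnRNPL-deficient libraries 1 and 3, with a range of -0.075 to 0.19 over the 6 fits, and it was not called in any alternative. Over all genes, 830 were higher and 478 lower without WT library 3. The causes were not tested.

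Mice with the same replicate number share no stated animal, litter or day. Their deviations from the group means correlated at 0.429, 0.320 and 0.066, and not every library correlated best with its own number (WT library 3 did with hnRNPL-deficient library 2, 0.305). A replicate block gave 1755 higher and 1018 lower genes, lowered the limma adjusted p of *Fadd* to 0.0382 at a log2 fold change of 0.41, and changed no call of a member. Under it 3 pathway genes were lower instead of 2, with *Birc5* gained. Of the 19 alternatives, 7 gave *Fadd* an adjusted p under 0.1. The adjusted p of *Fadd* was 0.127 by edgeR and 0.115 by DESeq2 on the reads of 5 libraries.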
